A study of Danio rerio with 21 samples.

Results

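In adult zebrafish hearts, 139 genes of the 31953 in the count table were all but absent from the libraries of sham-operated hearts at 1 day post injury (dpi). They were counted in every injured heart of that day. The libraries were made from nuclei pulled down by a macrophage tag, yet cardiomyocyte markers lay far above macrophage markers in each. They were chosen by their own counts. A gene had to have at most 3 counts in each of the 3 1 dpi sham libraries, which 16338 genes did, and these were ranked by the lowest CPM (counts of a gene per 1000000 counts of its library) among the 5 injured 1 dpi libraries. The first 150 ranks were taken and 11 keratin, collagen, epithelial, neutrophil, muscle and cytokine genes were left out by name. Everything measured at 1 dpi is therefore a description and carries no test. The 5 dpi and 14 dpi libraries played no part in the choice, and there the name "switched on by both injuries" met its limit: 130 of the 139 genes (93.5%) were also detected, with more than 3 counts, in at least 1 sham heart of 5 or 14 dpi. The same held for 37.7% of all 16338 genes with so few counts in the 1 dpi shams. Among the 318 of those detected in all 5 injured libraries but not chosen, it held for 288 (90.6%).

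All fish were adults of allele ox133, whose transgenes are mpeg1:BirA-Citrine, a biotin ligase driven from a bacterial artificial chromosome with the macrophage gene mpeg1, and bactin:Avi-Cerulean-Rangap, a nuclear envelope protein that every cell makes with a tag for that ligase. Thus nuclei of mpeg1-expressing cells were biotinylated, pulled down from 1 heart per library, and their RNA was sequenced. Resection removed the apex of the ventricle (3 libraries at 1 dpi and 2 at 5 dpi), cryoinjury damaged its surface with a probe cooled in liquid nitrogen (2 libraries at 1 dpi, 2 at 5 dpi and 3 at 14 dpi), and sham operation exposed the ventricle without injuring it (3 libraries at 1 dpi, 2 at 5 dpi and 4 at 14 dpi). The shams thus shared the transgenes and the opening of the chest, and no unoperated heart and no resection at 14 dpi was analysed here. The 14 dpi libraries came in rounds, with all 3 cryoinjury libraries and 1 sham in round 2 and the other 3 shams in round 1.

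Zebrafish hearts regenerate, and macrophages enter the wound within the first day, where they take up debris and release cytokines. Interleukin-11 signals through a receptor that shares gp130 with the interleukin-6 family and is induced by tissue damage in fish. Claudins, plakophilins and laminins hold epithelial sheets together and to their basement membrane, and gel-forming mucins are made by mucous cells of surface epithelia. These epithelial products are not usual products of macrophages.

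The 21 libraries held 10577395 to 61141100 counts. Between 20122 and 21742 genes had at least 1 count after resection at 1 dpi and 14322 and 17352 after cryoinjury, against 12608 to 14075 in the 1 dpi shams. All 13 later libraries lay between 13428 and 20217. The 17 matched macrophage markers summed to 589 to 751 CPM after resection and 243 to 353 CPM after cryoinjury at 1 dpi, against 61.0 to 201 CPM in the shams. mpeg1.2 had no count in any cryoinjury or sham library of that day, and mpeg1.1 was not matched to an identifier. The 4 matched cardiomyocyte markers lay far above the macrophage markers in every library and summed to 25220 to 40906 CPM after resection and 32277 to 36535 CPM after cryoinjury at 1 dpi, against 44820 to 76134 CPM in the shams, so that injured and sham hearts did not overlap. The 3 erythrocyte and thrombocyte markers summed to 822 to 4310 CPM after resection and 233 to 253 CPM after cryoinjury, against 111 to 437 CPM in the shams. In libraries pulled down from whole hearts, more cells of a type and more RNA per cell cannot be told apart.

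Beside the members, 14 markers of epidermis and other surface epithelium, of which only agr2 is a member, summed to 5588 to 9909 CPM after resection and 2007 to 5456 CPM after cryoinjury, against 336 to 1771 CPM in the 1 dpi shams. In the 13 later libraries the same markers summed to 126 to 705 CPM. Of these markers, krt97, krt17, epcam, evpla and ppl stood in the first 150 ranks and were left out by name. Their contrast at 1 dpi, like that of agr2, therefore follows from the choice. krt5 had 650 to 3825 CPM in the injured hearts, against at most 0.986 CPM in the 1 dpi shams. krt4 had 700 to 1943 CPM in the injured hearts and 413, 1657 and 299 CPM in the shams, which overlapped. The 8 neutrophil markers summed to 93.0 to 190 CPM after resection and 55.9 to 161 CPM after cryoinjury, against 1.49 to 92.9 CPM in the shams. Much of these sums came from nccrp1, at 39.0 to 102 CPM in the injured hearts and 50.8, 92.8 and 1.25 CPM in the shams, and from cpa5 in cryoinjury replicate 2, at 62.6 CPM. mpx, the myeloperoxidase gene that defines neutrophils, had 4.81, 4.26 and 20.0 CPM after resection and 0.248 and 0.258 CPM after cryoinjury, against no count in the shams. Of the 8 neutrophil markers, mmp9 and npsn stood in the first 150 ranks and were left out by name, so their contrast also follows from the choice. The part of any of these cell types in the members' values was not tested.

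**Figure D1:**
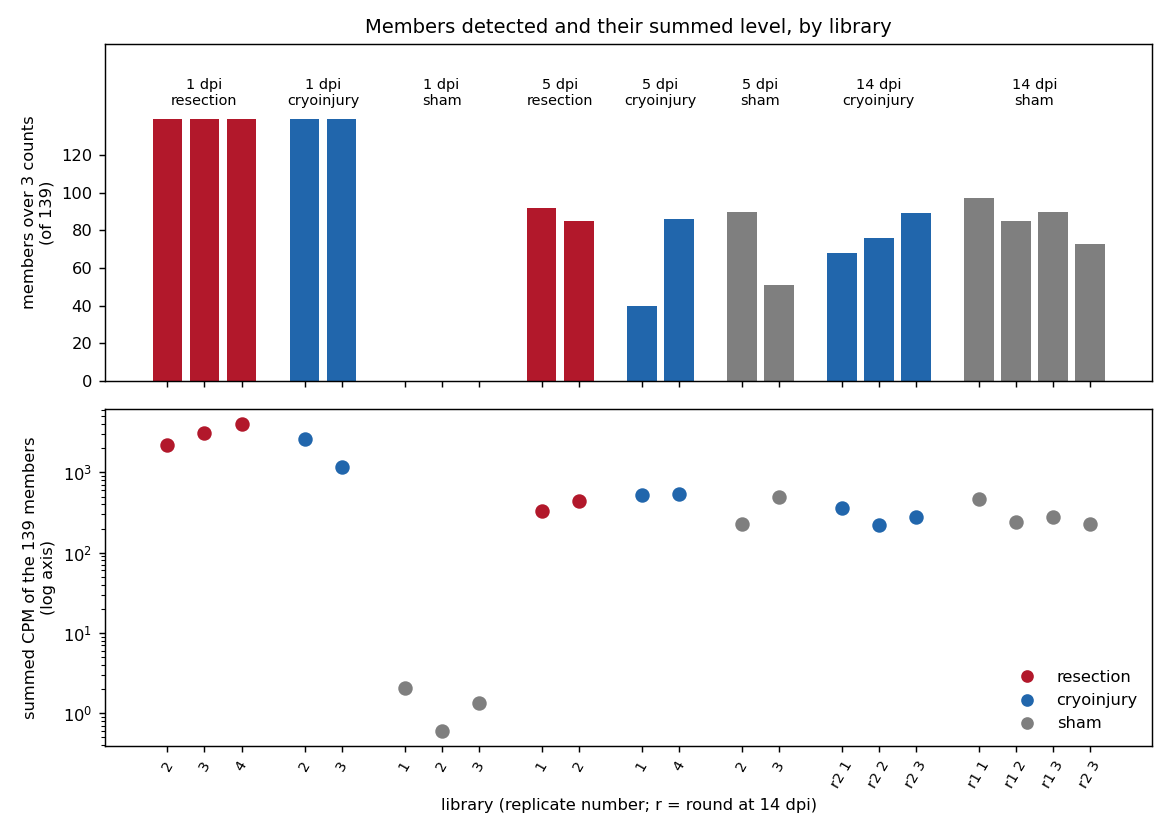
Number of the 139 members with more than 3 counts (top, bars) and their summed CPM on a log axis (bottom, points) in each library, with resection in red, cryoinjury in blue and sham in grey. By the choice of genes all 139 are detected in the injured 1 dpi libraries and 0 in the 1 dpi shams, whereas 40 to 97 are detected in each later library, shams included.

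The members together made up 2195, 3131 and 3982 CPM in the resection libraries and 2612 and 1171 CPM in the cryoinjury libraries at 1 dpi, against 2.08, 0.605 and 1.33 CPM in the shams. Of all 31952 genes with complete counts, 457 (1.43%) had more than 3 counts in every injured and at most 3 in every sham library of that day, and 76 of the 139 members had no count at all in the 3 shams. Cryoinjury replicate 3 set the lowest value, and hence the rank, of 69 members, and cryoinjury replicate 2 that of another 32. At the lower edge, sema4aa stood at 0.987 CPM and itgb6 and bbs2 both at 0.967 CPM, and the genes just outside were zgc:174164 and card14, also at 0.967 CPM, and cldna at 0.957 CPM.

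Of the members grouped by function, 12 were epithelial. They stood on lists of junction, epithelial regulator and mucin genes that were drawn up with earlier results of these data known. muc5.2, a gel-forming mucin, had 194, 353 and 664 CPM after resection and 215 and 2.71 CPM after cryoinjury, against no count in any 1 dpi sham. Its mean was at least 5132-fold higher after resection and at least 1382-fold higher after cryoinjury than 3 counts in the mean sham library, and the cryoinjury mean rested on 1 of 2 hearts. agr2, a disulfide isomerase of mucus-secreting cells, had 90.2, 54.7 and 183 CPM after resection and 149 and 19.4 CPM after cryoinjury, against no count in the shams.

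Genes of cell junctions were among them. pkp3a, a plakophilin of the desmosome, had 97.8, 177 and 203 CPM after resection and 190 and 75.1 CPM after cryoinjury, against 0, 0 and 0.0813 CPM in the shams. cldnb, a tight junction claudin, had 96.2, 126 and 230 CPM after resection and 65.0 and 20.6 CPM after cryoinjury, against 0 counts in the shams. All 3 resected hearts lay above both cryoinjured hearts for cldnb, whereas they overlapped for pkp3a. The laminin chain gene LAMC3 (1 of 2), named lamb3 in the reference table, had 12.2, 21.6 and 16.9 CPM after resection and 2.38 and 8.03 CPM after cryoinjury, and esrp2, an epithelial splicing regulator, had 37.6, 24.3 and 53.9 CPM after resection and 2.48 and 1.37 CPM after cryoinjury. The other epithelial members, with lowest injured values between 1.55 and 7.20 CPM, were itga3a (an integrin subunit that binds laminin), cdh26.2 (a cadherin), cldn7b, galnt6 (which starts O-linked sugar chains on mucins), vgll4l and evplb (an envoplakin of the desmosome).

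All 12 epithelial members had a higher mean after resection than after cryoinjury at 1 dpi, by a median of 2.15-fold, and for esrp2 by 20.0-fold. The mean was also higher after resection for 90 of all 139 members. How often this held among all genes was not counted, so nothing particular to the epithelial members is read from it. Every resected heart lay above both cryoinjured hearts only for cldnb, cldn7b, LAMC3 (1 of 2) and esrp2. Of 22244 genes counted in an injured 1 dpi library, 47.1% showed that order. For itga3a and cdh26.2 cryoinjury replicate 2 lay above all resected hearts, at 19.4 and 115 CPM. The 12 epithelial members were seldom detected in the later libraries. A median member of the group was detected in 2 of the 13 later libraries, 0 of the 12 were detected in 4 or more of the 6 later shams, and for 11 of the 12 every later library lay below every injured 1 dpi library. The same held for 40 of the 139 members (28.8%) and for 0.989% of all 31952 genes, and nothing is read from these shares, because the members were ranked on their lowest injured value. The exception, esrp2, reached 3.85 CPM in 1 sham at 14 dpi, above its lowest injured value of 1.37 CPM. vgll4l and LAMC3 (1 of 2) were not detected in any later library. The same sham, replicate 1 of round 1, held more than 3 counts for 9 of the 12, against 0 to 4 in each of the other 12 later libraries.

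Lists of the same kind show how far the rule reached. Of the 28 matched junction genes, 22 had more than 3 counts in all 5 injured 1 dpi libraries, but 11 of the 28 also had more than 3 counts in at least 1 sham of that day and so could not be members. Of the 18 epithelial regulators 9 were detected in all 5 injured libraries and 6 in a sham, and of the 8 mucin and secretory genes 6 and 3. Listed genes that were not members were also counted later. Both 5 dpi shams detected 6 junction, 4 regulator and 2 mucin and secretory genes, and neither detected 17, 10 and 4. All 4 shams of 14 dpi detected 6, 3 and 1, and none of them detected 5, 4 and 1. dsc2l had 15.9 to 61.8 CPM in the 13 later libraries.

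**Figure D2:**
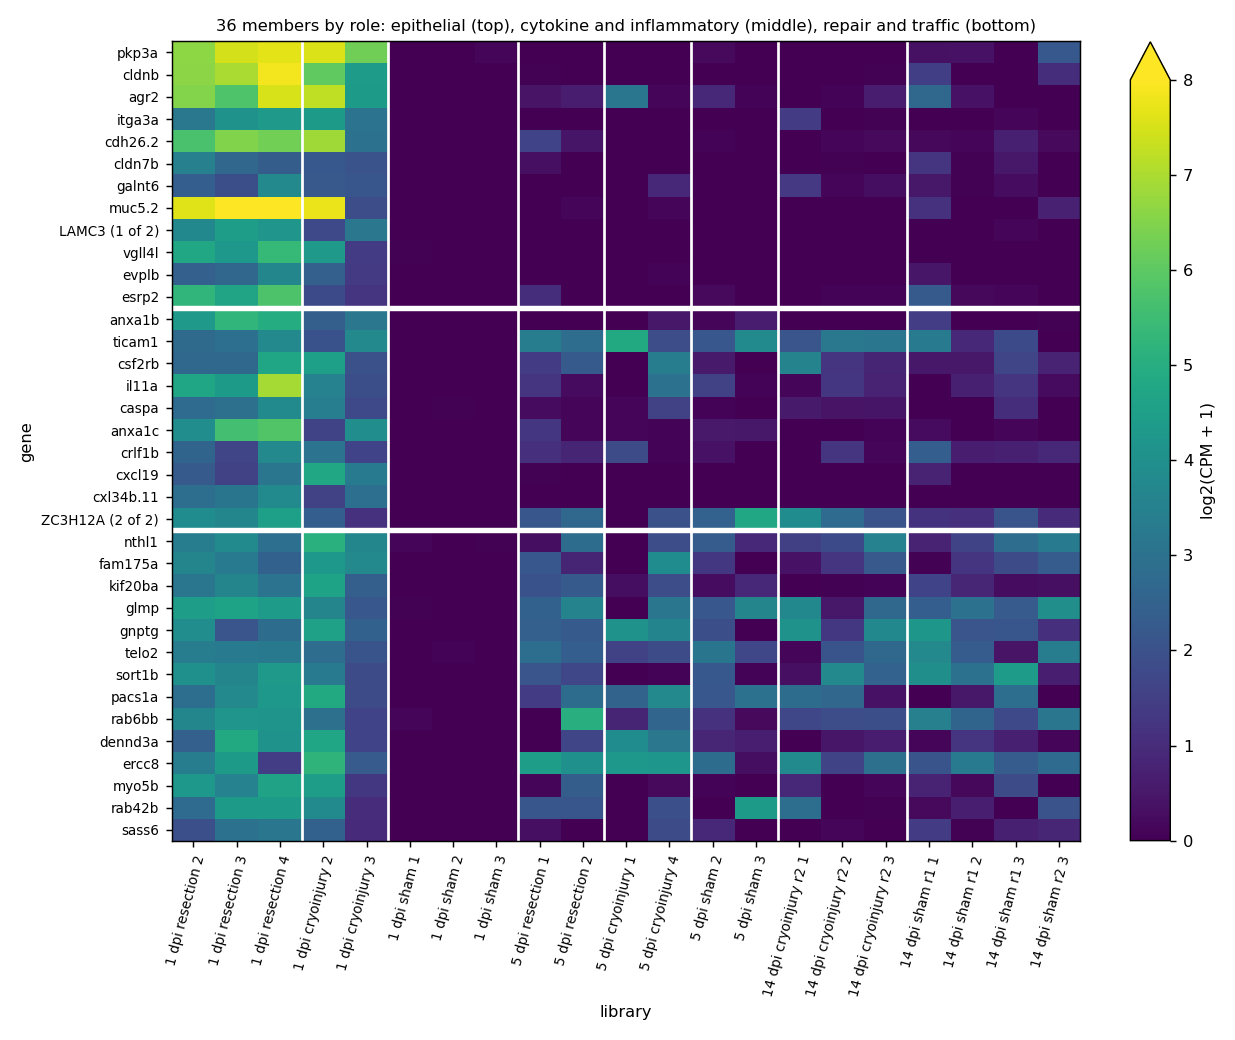
log2(CPM + 1) of the 36 members on the epithelial, cytokine and inflammatory, and repair and traffic lists (rows) in the 21 libraries (columns, grouped by day and operation), dark for 0 and yellow for 8 or more. The 12 epithelial genes are dark in nearly every later library, and most of the 14 repair and traffic genes are green or blue in most of them, shams included.

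Cytokine and inflammatory genes gave 10 members. il11a, one of the zebrafish interleukin-11 genes, had 25.8, 19.4 and 119 CPM after resection and 10.6 and 2.77 CPM after cryoinjury, against 0 counts in the 1 dpi shams, and every resected heart lay above both cryoinjured hearts. Its paralogue il11b was among the 11 genes left out by name and stood the other way. It had 18.9, 6.27 and 9.46 CPM after resection and 50.2 and 33.3 CPM after cryoinjury. At 5 dpi il11a had 1.34 and 0.189 CPM after resection and 0 and 7.07 CPM after cryoinjury, against 1.92 and 0.0464 CPM in the shams, so that the groups overlapped. At 14 dpi its 3 cryoinjury libraries had 0.0698, 1.43 and 0.686 CPM, against 0, 0.639, 1.33 and 0.184 CPM in the 4 shams, which again overlapped. Of the 16 matched interleukin-11 and gp130 genes, il11a and the cytokine receptor-like factor crlf1b were the only members, and 10 of the 16 had more than 3 counts in a 1 dpi sham.

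Both chemokine members were nearly absent after 1 dpi. cxcl19 had 3.82, 1.96 and 7.76 CPM after resection and 27.0 and 8.91 CPM after cryoinjury, so that here both cryoinjured hearts lay above all resected hearts. It was detected in 1 of the 13 later libraries. cxl34b.11 had 6.48, 7.67 and 13.3 CPM after resection and 1.95 and 6.51 CPM after cryoinjury, and had no count in any 1 dpi sham or later library, which for those 13 libraries allows up to 3 counts in each, or 0.0649 to 0.284 CPM. Those limits cover counting error only.

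anxa1b and anxa1c, zebrafish genes of the annexin A1 type that binds membranes in leukocytes and epithelia, had 18.6, 37.6 and 30.3 CPM and 14.1, 47.8 and 56.0 CPM after resection. After cryoinjury anxa1b had 4.36 and 7.99 CPM and anxa1c 2.09 and 14.2 CPM. caspa, the zebrafish caspase of the inflammasome, had 5.98, 6.78 and 13.3 CPM after resection and 9.68 and 2.41 CPM after cryoinjury. For all 3 genes every later library lay below every injured 1 dpi library.

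Other inflammatory members were still counted in later hearts after each operation. ticam1, an adaptor of Toll-like receptors, had 9.30 and 6.24 CPM after resection and 28.0 and 2.74 CPM after cryoinjury at 5 dpi, against 3.54 and 13.2 CPM in the shams. It was detected in 12 of the 13 later libraries. ZC3H12A (2 of 2), whose mammalian counterpart is a ribonuclease that degrades cytokine messages, was also detected in 12 of 13, and csf2rb, the shared beta chain of several cytokine receptors, in 11. As a group, 5 of the 10 were detected in at least 4 of the 6 later shams.

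DNA repair, mitosis and vesicle traffic genes, 14 members in all, were often counted in later sham hearts. ercc8, which acts in transcription-coupled repair, had 9.25, 19.7 and 1.76 CPM after resection and 36.1 and 3.89 CPM after cryoinjury at 1 dpi, against 0 counts in the shams. At 5 dpi it had 21.1 and 15.3 CPM after resection and 18.4 and 17.5 CPM after cryoinjury, against 6.07 and 0.232 CPM in the shams. At 14 dpi it had 12.97, 2.14 and 6.75 CPM after cryoinjury, against 3.22, 8.95, 4.05 and 6.01 CPM in the shams. All 4 injured hearts thus lay above both shams at 5 dpi, whereas the groups overlapped at 14 dpi. By edgeR's quasi-likelihood test its unadjusted p at 5 dpi was 0.149 after resection and 0.294 after cryoinjury, against the same shams. Of all genes tested, 20.1% and 18% had both injured hearts above both shams.

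Of these 14 members 13 were detected in at least 4 of the 6 later shams, the median member was detected in 10.5 of the 13 later libraries, and for 8 the mean of the later shams was at or above the lowest injured 1 dpi value. That last count was not taken over genes outside the members. nthl1, a base excision repair enzyme, had 9.19, 12.9 and 6.52 CPM after resection and 33.1 and 11.7 CPM after cryoinjury at 1 dpi, against 0.0704, 0 and 0.0271 CPM in the shams of that day. Its 14 dpi shams had 0.714, 2.09, 6.29 and 8.78 CPM. gnptg, a subunit of the enzyme that tags lysosomal proteins, had 17.7, 3.32, 3.42 and 1.11 CPM in the 14 dpi shams, and the lysosomal membrane protein gene glmp 4.28, 7.16, 3.91 and 14.4 CPM. The others were telo2, fam175a (ABRAXAS1 in the reference table), kif20ba and sass6 from repair and mitosis, and sort1b, pacs1a, rab6bb, dennd3a, myo5b and rab42b from traffic. kif20ba, a mitotic kinesin, was the member of this group whose later libraries all lay below its injured 1 dpi libraries.

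Most members, 102 of 139, stood on none of the 9 role lists, and mst1ra, a receptor tyrosine kinase, was the single member on the list of Wnt, Notch, ErbB and TGF-beta genes. tnks1bp1, a tankyrase-binding protein gene and first in rank, had 99.9, 259 and 234 CPM after resection and 240 and 218 CPM after cryoinjury, against 0 counts in the 1 dpi shams. It was detected in all 13 later libraries. At 5 dpi it had 4.78 and 18.6 CPM after resection and 31.5 and 34.7 CPM after cryoinjury, against 0.961 and 26.01 CPM in the shams, and 1 sham thus lay above both resected hearts. cd44a, a hyaluronan receptor gene, had 19.4, 16.7 and 62.4 CPM after resection and 16.9 and 7.73 CPM after cryoinjury, and was detected in 1 later library, a 14 dpi sham. chst11, a chondroitin sulfotransferase gene, had 11.2, 13.6 and 21.4 CPM after resection and 55.3 and 11.9 CPM after cryoinjury, against 0 counts in the 1 dpi shams. si:dkey-73p2.4 had 163, 232 and 12.99 CPM after resection and 11.5 and 12.9 CPM after cryoinjury. It shares the stem of its name with other genes of the reference table, as do the ms4a17a and 5S_rRNA members. Whether genes that share a stem are similar copies, and how reads of such copies were counted, was not tested.

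The members' levels at 1 dpi after each injury are given as a description with no test. The mean was higher after resection for 90 members and after cryoinjury for 49, more than 2-fold so for 56 and 26, and the median ratio of resection over cryoinjury was 1.56. These counts were not taken over all genes, so nothing particular to the members is read from them. All 3 resected hearts lay above both cryoinjured hearts for 42 members (30.2%) and below both for 10 (7.19%), and among the 22244 genes with more than 3 counts in at least 1 injured 1 dpi library these shares were 47.1% and 3.06%. The members were ranked on their lowest injured value and so had to be counted after both injuries. The 22244 genes needed counts in only 1 injured library, so nothing is read from the difference between these shares. Among members with the higher mean after resection, thy1 had 12.5, 15.7 and 41.5 CPM after resection and 2.38 and 1.93 CPM after cryoinjury. Among those with the higher mean after cryoinjury, prkcq, a protein kinase C gene of T cells in mammals, had 1.97, 1.12 and 10.1 CPM after resection and 41.5 and 15.7 CPM after cryoinjury. Over the members, log2(CPM + 1) correlated across genes at 0.655 to 0.758 between resected hearts and at 0.230 between the cryoinjured hearts. Genes are not independent replicates in such a correlation.

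**Figure D3:**
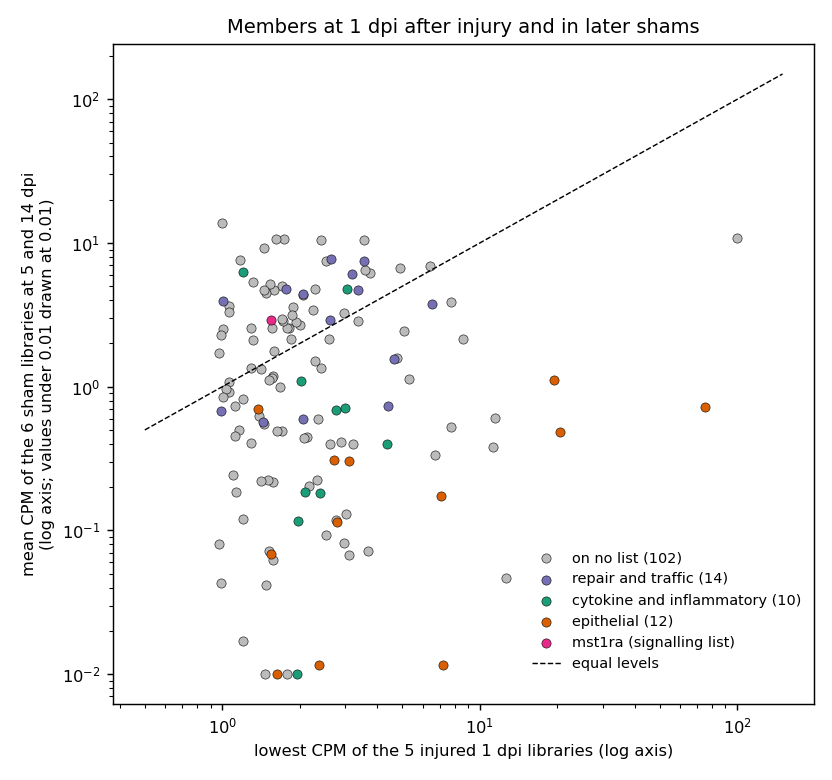
Each point is a member, with its lowest CPM among the 5 injured 1 dpi libraries across and its mean CPM over the 6 sham libraries of 5 and 14 dpi upwards, both on log axes, coloured by role list. The 12 epithelial members all lie below the dashed line of equal levels, and 53 of the 139 members lie on or above it. Genes other than the members were not counted in this way.

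In the later shams some members were not detected and others were detected in every heart. Each of the 6 later shams held 51 to 97 of the 139 members. At least 4 of the 6 shams detected 74 members (53.2%), all 6 detected 27, and 9 members were detected in none. Among all 16338 genes with at most 3 counts in each 1 dpi sham, 37.7% were detected in at least 1 and 7.93% in at least 4 later shams. Among the 318 of those that were detected in all 5 injured 1 dpi libraries but were not members, 288 (90.6%) were detected in at least 1 later sham and 145 (45.6%) in at least 4. At a level of at least 1 CPM in place of more than 3 counts, 46 members passed in at least 4 later shams.

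In 82 members at least 1 later sham was at or above the lowest injured 1 dpi value, in 53 the mean of the later shams was, and in 11 that mean was at or above the median of the 5 injured libraries. Those 11 were spsb4a, nelfb, pygma, mst1ra, slc39a1, plcxd3, elmo2, znf970, ttbk1b, tctex1d2 and slco5a1, several of them outside the rule for named genes and listed after their values were seen. The counts of 82, 53 and 11 were not taken over other genes. The lowest value is that of a single heart, cryoinjury replicate 3 for 69 members. Nothing particular to the members is read from these counts. nelfb, a subunit of the negative elongation factor, had 11.3, 2.41 and 3.59 CPM after resection and 9.29 and 4.55 CPM after cryoinjury, against 0 counts in the 1 dpi shams, and had 47.0, 4.94, 5.38 and 2.84 CPM in the 14 dpi shams. The 5 members with the highest mean over the later shams were slco5a1, tnks1bp1, abcc4, zgc:111983 and nelfb, at 13.7, 10.9, 10.6, 10.6 and 10.5 CPM. For 4 of these 5 a single heart carried the mean. slco5a1, a transporter gene, had 75.6 CPM in replicate 3 and 2.48 CPM in replicate 2 of the 5 dpi shams, and abcc4, an exporter gene, had 54.3 and 2.68 CPM in the same hearts, whereas zgc:111983 had 63.0 CPM in replicate 1 of round 1 and at most 0.419 CPM in any other later library.

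At the other end, the 40 members with every later library below every injured 1 dpi library compare with 26 (8.18%) of the 318 other genes and with 303 (2.98%) of the 10151 genes that had more than 3 counts in all 5 injured libraries, again after a ranking on that lowest value. Of the members, 6 were detected in none of the 13, namely LAMC3 (1 of 2), cxl34b.11, vgll4l, s1pr5b, si:ch73-56d11.4 and mep1a.1, the last 3 of which were named after their values were seen. Another 54 were detected in at least 10 of the 13, and 13 of those 54 in all 13.

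**Figure D4:**
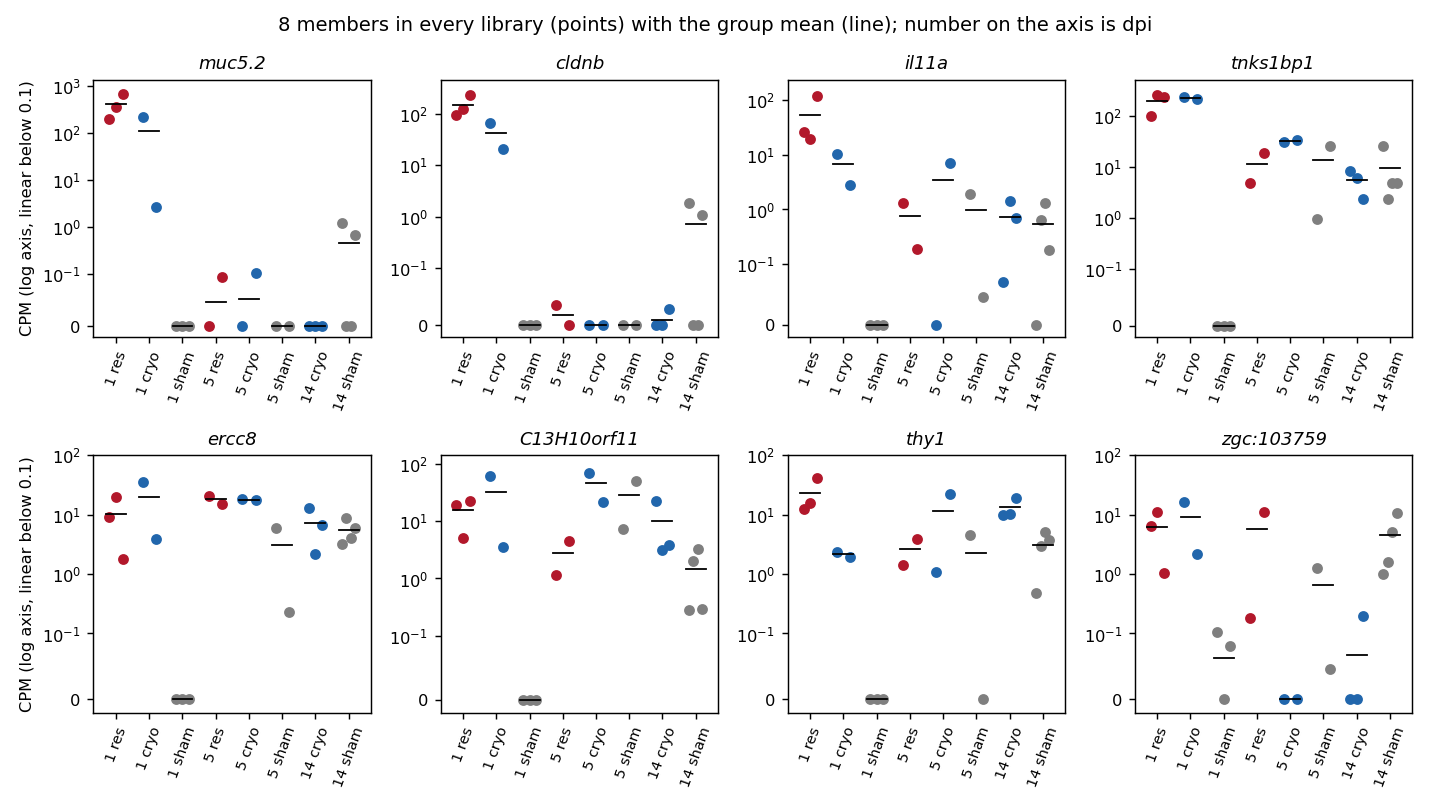
CPM of 8 members in every library (points, log axis that is linear below 0.1 CPM) with the group mean as a line, resection in red, cryoinjury in blue and sham in grey, at 1, 5 and 14 dpi. The epithelial genes muc5.2 and cldnb have at most 1.19 and 1.82 CPM in any later library, each in a 14 dpi sham. ercc8, C13H10orf11 and thy1 are present in every later group.

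At 5 dpi no member passed the test against sham after either injury. For resection against sham, edgeR's quasi-likelihood test with Benjamini-Hochberg adjustment called 0 of 15423 genes tested (0% higher and 0% lower) and hence 0 of the 84 members that passed the filter on low counts. At an unadjusted p under 0.05 it held 0 members higher and 2 lower, against 0.746% and 2.52% of all genes tested. Both resected hearts lay above both shams for 20 of these 84 members (23.8%) and below both for 3 (3.57%), where all genes tested gave 20.1% and 11.2%. A member can pass the filter through 1 group alone, so these counts describe only the members tested. DESeq2 called 0 members, beside 47 genes higher and 106 lower in all. The members' median log2 fold change was 0.80, against 0.08 over all genes, with 51 of 84 above 0. Without sham replicate 2, which leaves 1 sham, it was 3.52, against 1.00 over all genes. Among the 23 members with at least 10 counts in every library it was -0.21, against -0.009 over all genes with such counts.

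For cryoinjury against the same 5 dpi shams, 0 of 14286 genes (0% higher and 0% lower) and 0 of 71 members were called, and 0 members had an unadjusted p under 0.05, against 1.18% of all genes higher and 2.44% lower. Both cryoinjured hearts lay above both shams for 10 of 71 members (14.1%) and below both for 6 (8.45%), against 18% and 13.5% of all genes. DESeq2 called 1 of 125 members, beside 78 genes higher and 204 lower among all 22495. That member was myhz2, a fast muscle myosin gene that did not pass the main filter and that was high in 1 of the 2 cryoinjured hearts. The members' median log2 fold change was 0.75, against -0.01 over all genes. Without cryoinjury replicate 4, which leaves 1 cryoinjured heart, it was -3.61, against -0.95 over all genes.

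The members with the smallest p at 5 dpi pointed both ways. slco5a1 had 1.81 and 2.55 CPM after resection, against 2.48 and 75.6 CPM in the shams, a difference of -4.57 ± 1.52 (SE) on the log2 scale with an adjusted p of 1.00 by edgeR. C13H10orf11, named LRMDA in the reference table, had 1.16 and 4.44 CPM after resection, against 7.39 and 49.7 CPM in the shams, and its log2 fold change was -3.79 ± 1.43 (SE; adjusted p = 1.00, edgeR). Its 2 groups did not overlap, whereas those of slco5a1 did. The smallest p among members that were higher after resection belonged to rusc1, with 0.579 and 10.1 CPM after resection, against 0.202 and 0.0927 CPM in the shams, at an adjusted p of 1.00 by edgeR. For cryoinjury it was si:ch211-217k17.11, with 6.45 and 1.06 CPM, against no count in either sham and likewise an adjusted p of 1.00 by edgeR. Among members with at least 10 counts in every injured 5 dpi library, ercc8, fbxl4, dera, tnks1bp1 and gnptg had the highest lowest values, from 15.3 down to 3.78 CPM. dera, an aldolase of deoxyribose phosphate, had 7.85 and 20.3 CPM after resection and 45.8 and 10.5 CPM after cryoinjury, against 11.08 and 0.0464 CPM in the shams.

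No member passed the test between the injuries at 5 dpi. The edgeR test called 0 of 14709 genes (0% in each direction) and 0 of 80 members, while an unadjusted p under 0.05 was reached by 1 member that was higher after resection and 1 that was lower, against 3.84% and 1.35% of all genes. Both resected hearts lay above both cryoinjured hearts for 17 members (21.2%) and below both for 6 (7.5%), against 20.1% and 16.3% of all genes. C13H10orf11 had 1.16 and 4.44 CPM after resection, against 69.2 and 21.8 CPM after cryoinjury, so that its log2 fold change was -3.998 ± 1.19 (SE; adjusted p = 0.869 by edgeR and 0.0280 by DESeq2). DESeq2 also called myhz2 and no other of 123 members, beside 164 genes higher and 89 lower among all 22044. tgm5l, a transglutaminase gene, had 0.760 and 2.17 CPM after resection, against 0 counts in both cryoinjured hearts, with an adjusted p of 0.869 by edgeR. The members' median log2 fold change was 0.02, against 0.06 over all genes. Without cryoinjury replicate 4, in which 86 members were detected beside 40 in replicate 1, it was 6.34, against 0.98 over all genes.

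At 14 dpi, cryoinjury against sham again gave 0 calls among 15020 genes (0% in each direction) and 81 members by edgeR's quasi-likelihood test. At an unadjusted p under 0.05, 3 members were higher and 2 lower, against 3.02% and 2.70% of all genes. All 3 cryoinjured hearts lay above all 4 shams for 5 members (6.17%) and below all 4 for 4 (4.94%), against 4.65% and 3.46% of all genes, and the members' median log2 fold change was 0.06, against -0.01 over all genes. With the round as a covariate the members' median was 1.498 and that over all genes 0.27, with 0 called, but that fit sets the 3 cryoinjured hearts against the single sham of round 2, and its lack of calls shows nothing about the members. DESeq2 called 1 of 113 members, zgc:103759, as lower, beside 96 genes higher and 81 lower among all 22586.

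thy1, a surface glycoprotein gene of the immunoglobulin family, had 10.0, 10.5 and 19.4 CPM after cryoinjury at 14 dpi, against 0.476, 3.03, 5.099 and 3.69 CPM in the shams. Every cryoinjured heart lay above every sham, and the log2 fold change was 2.06 ± 0.90 (SE; adjusted p = 0.852, edgeR). plcxd3 had 38.8, 5.96 and 6.60 CPM after cryoinjury, against 0, 5.46, 1.33 and 0.295 CPM in the shams, and C13H10orf11 had 22.6, 3.07 and 3.86 CPM, against 0.281, 2.00, 3.21 and 0.295 CPM, with adjusted p-values of 0.850 and 0.852 by edgeR. The groups did not overlap for plcxd3 and did for C13H10orf11. Both means were carried by cryoinjury replicate 1, without which the log2 fold changes were 1.73 for plcxd3 and 1.23 for C13H10orf11, in place of 3.26 and 2.82. zgc:103759 had 0, 0 and 0.2 CPM after cryoinjury, against 1.02, 1.62, 5.099 and 10.7 CPM in the shams, and its log2 fold change was -6.14 ± 2.03 (SE; adjusted p = 0.711 by edgeR and 0.00571 by DESeq2). elmo2, which acts in the engulfment of dying cells, had 0.209, 1.15 and 0.457 CPM after cryoinjury, against 0.433, 12.7, 3.98 and 5.13 CPM in the shams, which overlapped, with an adjusted p of 0.869 by edgeR. Markers of 3 cell types moved with this comparison without overlap. Macrophage markers summed to 464 to 1118 CPM after cryoinjury and 143 to 230 CPM in the shams, fibroblast and epicardium markers to 887 to 4298 CPM and 393 to 770 CPM, and fast skeletal muscle markers to 8693 to 9383 CPM and 4185 to 8495 CPM. Their part in these values was not tested.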

How the data were processed

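The authors mapped paired-end reads to danRer10 with STAR (2.4.2a) and deposited raw gene counts made with featureCounts; by the methods it ran with standard parameters, so reads of overlapping and antisense genes could not be told apart. Of the table's columns, 21 were matched to a sample, 2 were not and stayed unused, and 1 gene with missing values was left out. The column taken for 14 dpi cryoinjury replicate 1 lacks the word merged that its label carries, and was matched by day, round, operation and number, which no other label shares. Gene names came from the study's supplementary lists (133 members) or the reference table only (6 members).

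CPM was the count over the library total. Each later comparison was fitted on all genes of its 2 groups with edgeR (4.0.16) in R (4.3.3), using TMM scaling, filterByExpr, the quasi-likelihood test and Benjamini-Hochberg adjustment at 0.05, two-sided. The SE given with an edgeR log2 fold change was back-calculated, as its absolute value over the square root of the test's F statistic. DESeq2 (1.42.0), other filters and scaling, left-out libraries, the replicate number as a block and the round as a covariate were alternatives. The tests were also run on simulated counts with a fixed, small spread between libraries and large changes in well-counted genes only. That check does not show how often changes in the members would be missed. Each library was 1 heart by the methods, and p-values measure the spread between these libraries. The labels of 5 dpi sham replicate 2, 14 dpi sham round 1 replicate 3 and 14 dpi cryoinjury replicate 1 carry the word merged. They do not say what was merged. Depth ran from 10577395 to 61141100 counts.

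Named genes were the 20 of highest rank, members on role lists, the 3 on each side of rank 150, up to 6 with the smallest p per direction and comparison, the 5 with the highest later sham means, and the 5 with the highest lowest values at 5 dpi. Members and lists were chosen with earlier results of these data known.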

Additional observations from a re-analysis of the deposited data

Results flagged for a closer look

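Among the 4 shams at 14 dpi, 64 values (3 summaries over the members, and the CPM of each named member that reached 1 CPM there) were searched for 1 library far from the other 3 by Dixon's test at the 95% level. It flagged 19 of 64 values. Chance flags about 5% of unselected groups, a rate that cannot be set beside this count, since 1 library at 1 CPM was enough for a member to be searched and some entered through the very library that stood apart. Round 1 replicate 1 was the library apart, on the high side, in 11: tnks1bp1 at 25.9 CPM, agr2 at 5.45 CPM, si:dkey-7c18.24 at 22.5 CPM, cd44a at 3.05 CPM, anxa1b at 1.73 CPM, gnptg at 17.7 CPM, crlf1b at 4.22 CPM, esrp2 at 3.85 CPM, nelfb at 47.0 CPM, tgm5l at 1.99 CPM and zgc:111983 at 63.0 CPM. Beside it the other 3 shams had 2.39 to 4.98 CPM for tnks1bp1, 2.84 to 5.38 CPM for nelfb and 0 to 0.419 CPM for zgc:111983.

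Round 1 replicate 3 was the high library in 5: csf2rb at 2.17 CPM, pacs1a at 6.43 CPM, caspa at 1.05 CPM, ZC3H12A (2 of 2) at 3.21 CPM and si:ch211-217k17.11 at 3.00 CPM. Round 2 replicate 3 was high for pkp3a at 3.61 CPM and bbs2 at 6.82 CPM, and round 1 replicate 2 for diaph3 at 1.79 CPM. What sets these libraries apart was not tested.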

How the results depend on the processing

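The choice of members depended on the cryoinjured hearts. Leaving out 1 injured 1 dpi library kept 61 to 132 of the 139, with 69 without cryoinjury replicate 2 and 61 without replicate 3. Asking for 0 counts in the shams kept 76, ranking by mean CPM 54, and TMM scaling 115. Members detected in at least 4 later shams numbered 74, and 46 at 1 CPM or more. In alternatives chosen after seeing the data, 52 of the 139 were detected in at least 4 later shams with 5 dpi sham replicate 3 and 14 dpi sham round 1 replicate 1 left out, and the 40 members with every later library below every injured 1 dpi library numbered 46 without both, and 48 without 1 dpi cryoinjury replicate 3. The 5 dpi counts of called members, all 0, became 1 by DESeq2 and 1 with no filter for cryoinjury against sham, and 2 by DESeq2 and 1 with no filter for resection against cryoinjury. At 14 dpi they became 1 by DESeq2 and 1 with no filter. With no filter, all genes gave 29 calls higher and 35 lower for cryoinjury against sham, and 13 and 47 between the injuries. At 14 dpi all genes gave 106 and 66. Leaving out 1 library gave 0 to 8 called members for resection against sham, 0 to 1 for cryoinjury against sham, 0 to 7 between the injuries at 5 dpi and 0 to 0 at 14 dpi. At 5 dpi each such fit leaves 1 heart in a group. The fits with 8 and 7 called members also called many genes that are not members, so nothing particular to the members is read from these counts. Of 457 values of named members under alternatives, 9 changed sign. With 1 library left out, log2 fold changes ran, for resection against sham, from -6.88 (without resection replicate 2) to 6.28 for rab6bb and from -4.31 to 1.01 (without sham replicate 3) for abcc4, for cryoinjury against sham from -12.67 to 1.13 (without sham replicate 3) for slco5a1 and from -1.12 (without cryoinjury replicate 1) to 10.91 for nelfb, and between the injuries from -2.97 to 1.34 (without cryoinjury replicate 4) for thy1. The others were, at 14 dpi, si:dkey-7c18.24 (1.17 with the round as a covariate and 1.16 in round 2 alone) and nelfb (0.13 and 0.11). With the replicate block at 14 dpi, 0 members were called and 1 was higher and 1 lower at an unadjusted p under 0.05 by edgeR. Deviations of same-numbered libraries from their group means correlated at -0.02 to 0.03, and those of differently numbered ones at -0.06 to 0.05. The check showed no likeness by number and cannot decide whether a shared number marks a pair. At 5 dpi no paired analysis was possible because the groups share fewer than 2 replicate numbers. The cause of these changes was not tested. With 2 hearts a group at 5 dpi, differences between hearts of one group limit every comparison, and members near 1 CPM rest on few counts.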
